A study of Caenorhabditis elegans with 3 samples.

Results

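The genes of 3 families of Caenorhabditis elegans germ granule proteins were followed between oocyte-making and sperm-making animals: the GLH helicases (glh-1, glh-2, glh-3, glh-4), the PGL proteins (pgl-1, pgl-2, pgl-3) and the first MEG proteins (meg-1, meg-2). They were chosen by gene name through the array platform's annotation, from a list of 10 names that also held deps-1. No row carried the name deps-1 in the tables used, so that gene was not analysed here, and the other 9 were measured by 13 of the 21611 rows. They are 9 of the 14795 named genes tested. RNA of fem-1(lf) animals was hybridised together with RNA of fem-3(gf) animals on 3 arrays of 2 colours, 1 prep of each genotype per array. Loss of function of the sex determination gene fem-1, written fem-1(lf), is known to give XX animals a germline of oocytes without sperm. Gain of function of fem-3, written fem-3(gf), is known to give XX animals a germline of sperm without oocytes. The labels give no allele number, age, temperature or dissection. They name no separate cultures for the preps either, so every p-value reflects the spread of 3 arrays that could be technical repeats.

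Germ granules, called P granules in this worm, are assemblies of RNA and protein that sit on the outside of germ cell nuclei, pass through the oocyte into the embryo, and are absent from mature sperm. GLH proteins are relatives of the Vasa RNA helicase of flies, PGL proteins form the body of the granule, and MEG proteins, which are rich in disordered sequence, act on granules in the early embryo. The granules hold many factors of small RNA pathways and of the control of maternal mRNA.

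Each value below is a log2 ratio of the 2 channels of an array, so that 1 stands for a 2-fold difference. A positive ratio was taken as a higher level in fem-1(lf). That direction is likely rather than stated: the labels name no dye, but every description puts fem-1(lf) first, and all 13 sperm markers were below 0 (median -5.39) while all 10 oocyte markers were above 0 (median 2.82). The muscle, intestine, cuticle and neuron markers, 53 genes in all, had a pooled median of -0.39, and all features together had a median of -0.10. The deposited values are ratios only, so the level of a gene in either genotype was not analysed here. From such ratios, fewer cells of a type and less RNA per cell cannot be told apart. A dye effect on a single gene cannot be told apart from genotype either, since no swap of dyes between arrays is stated.

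Transcripts of 6 of the 9 genes were higher in fem-1(lf), 3 did not pass the test, and none was called higher in fem-3(gf). The 6 were meg-1, pgl-1, meg-2, glh-2, glh-3 and pgl-2, with folds between 4.36 for meg-1 and 1.68 for pgl-2. The 3 that did not pass were pgl-3, glh-1 and glh-4. The test was limma's moderated test of the mean ratio against 0 over all 19731 features, called at a Benjamini-Hochberg adjusted p under 0.05. That rule called 21% of all features higher in fem-1(lf) and 23.7% higher in fem-3(gf), against 66.7% and 0% of the 9 genes. The ratio was above 0 on all 3 arrays for 8 of the 9 genes, compared with 29.5% of all features. For 4 of the 9 the mean both passed this test and was at least 2-fold in favour of fem-1(lf), compared with 8.43% of all features. The 2-fold limit was applied to the mean alone, and no test against 2-fold was run. The median of the 9 means was 0.81. The chromosomes of these genes differ in the share of their named genes called higher in fem-1(lf). It was 31.4% on chromosome I, which holds all 4 GLH genes, 32.2% on III with pgl-2, 24.6% on IV with pgl-1, 14% on V with pgl-3 and 16.3% on X with both MEG genes.

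**Figure D1:**
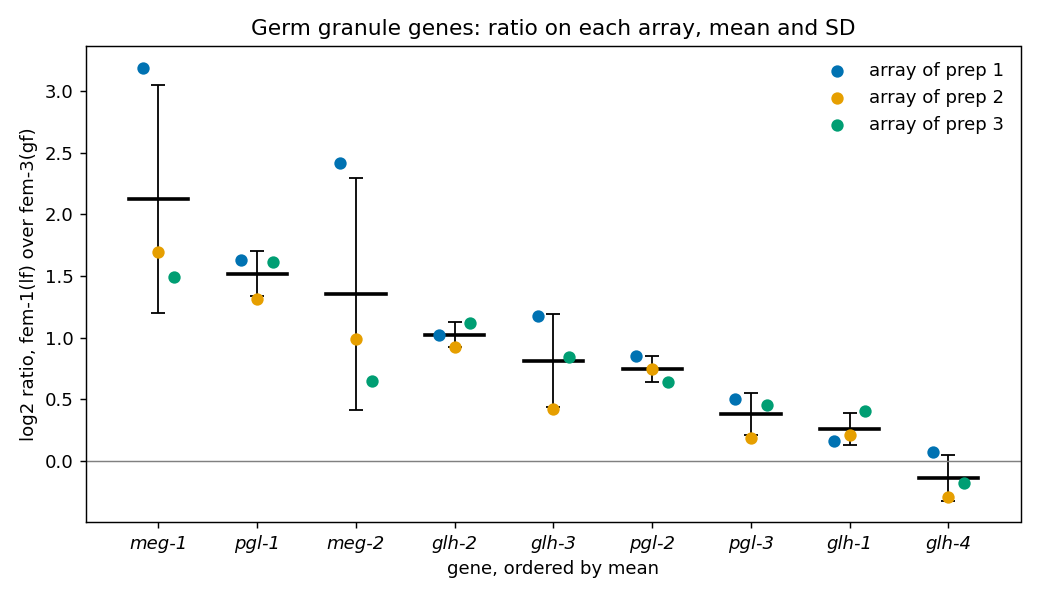
Log2 ratio of fem-1(lf) over fem-3(gf) (vertical axis) for each of the 9 genes (horizontal axis, ordered by mean) on the arrays of preps 1, 2 and 3 (points), with the mean (thick bar) and SD (thin bar, n = 3). The points of meg-1 and meg-2 are spread widely because the array of prep 1 lies far above the others, whereas those of glh-2 and pgl-2 lie close together, and only glh-4 has points below 0.

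Among the 4 GLH genes, glh-2 and glh-3 were higher in fem-1(lf), while glh-1 and glh-4 did not pass. All encode DEAD-box RNA helicases with zinc knuckles, and GLH-1 and GLH-4 are the pair whose combined loss is known to cause the most severe sterility. The ratios of glh-2 were 1.03, 0.92 and 1.12 on the arrays of preps 1, 2 and 3. The arrays thus lay close together and all far above 0, with a mean of 1.02 ± 0.10 (SD, n = 3), a 2.03-fold difference (limma adjusted p = 0.00136). Its 2 rows on the array gave 1.01 and 1.04 when fitted on their own. For glh-3, which encodes a smaller GLH protein without the phenylalanine-glycine repeats of its relatives, the ratios were 1.17, 0.42 and 0.84. All were above 0, with prep 2 the lowest, and the mean was 0.81 ± 0.37 (SD, n = 3), a 1.76-fold difference (limma adjusted p = 0.0127). Without prep 3 the mean of glh-3 was 0.80 and the adjusted p rose to 0.0543.

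The ratios of glh-1 were 0.16, 0.21 and 0.41. They were all above 0, but their mean of 0.26 ± 0.13 (SD, n = 3) was not called (limma adjusted p = 0.13), and the 95% interval ran from -0.04 to 0.56. That interval leaves out a 2-fold difference in favour of fem-1(lf), since its upper end corresponds to 1.47-fold. The 2 rows of glh-1 gave 0.27 and 0.25 on their own. For glh-4 the ratios were 0.07, -0.29 and -0.18, on both sides of 0. Its mean was -0.14 ± 0.19 (SD, n = 3; limma adjusted p = 0.42), with a 95% interval from -0.46 to 0.18, and its 2 rows gave -0.16 and -0.12. Where 0 was set mattered for both genes: with each array centred on the pooled somatic markers, which moved the median of all features from -0.10 to 0.28, glh-1 was at 0.64 and was called (adjusted p = 0.0073), and glh-4 was at 0.25 and was not (adjusted p = 0.32).

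All 3 PGL genes had ratios above 0 on every array, but their sizes were graded from pgl-1 through pgl-2 to pgl-3. PGL-1 and PGL-3 are granule scaffold proteins of germ cells at all stages and carry RGG repeats at their C-terminal ends, whereas PGL-2, which lacks the repeats, is known from the germline after hatching. The ratios of pgl-1 were 1.63, 1.31 and 1.62, the highest of the family on each array. Their mean was 1.52 ± 0.18 (SD, n = 3), a 2.87-fold difference (limma adjusted p = 0.000438), higher than 97.1% of all features. For pgl-2 they were 0.85, 0.74 and 0.64, a tight set with a mean of 0.75 ± 0.10 (SD, n = 3) and a 1.68-fold difference (limma adjusted p = 0.0045).

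The third PGL gene lay just outside the threshold. The ratios of pgl-3 were 0.50, 0.19 and 0.45, and their mean was 0.38 ± 0.17 (SD, n = 3), with a limma adjusted p of 0.0544 and a 95% interval from 0.07 to 0.69. It passed once each array was centred on its own median (0.48, adjusted p = 0.0321) or on the somatic markers (0.77, adjusted p = 0.00287), or the arrays were scaled to the same spread (0.47, adjusted p = 0.0264). The call of pgl-3 thus depended on where 0 was set, while those of pgl-1 and pgl-2 did not.

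Both MEG genes were higher in fem-1(lf), with the widest spread between arrays of the 9 genes. MEG-1 and MEG-2 are serine-rich proteins that join the granules of the early embryo, and their joint loss from the mother leaves offspring with defective germ cells. The ratios of meg-1 were 3.19, 1.70 and 1.49. Its mean of 2.13 ± 0.93 (SD, n = 3) was the largest of the 9 genes, a 4.36-fold difference (limma adjusted p = 0.0047) that exceeded 99.2% of all features. The ratios of meg-2 were 2.42, 0.99 and 0.65, with a mean of 1.35 ± 0.94 (SD, n = 3), a 2.56-fold difference (limma adjusted p = 0.0238). For both genes the array of prep 1 stood well above the arrays of preps 2 and 3, which were near each other. Without prep 1 both genes were still called, at 1.59 for meg-1 (adjusted p = 0.001) and 0.82 for meg-2 (adjusted p = 0.0114). One of the 2 rows of meg-2 had no value on the array of prep 2, and the row measured on all 3 arrays gave 1.37 alone (adjusted p = 0.0167).

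**Figure D2:**
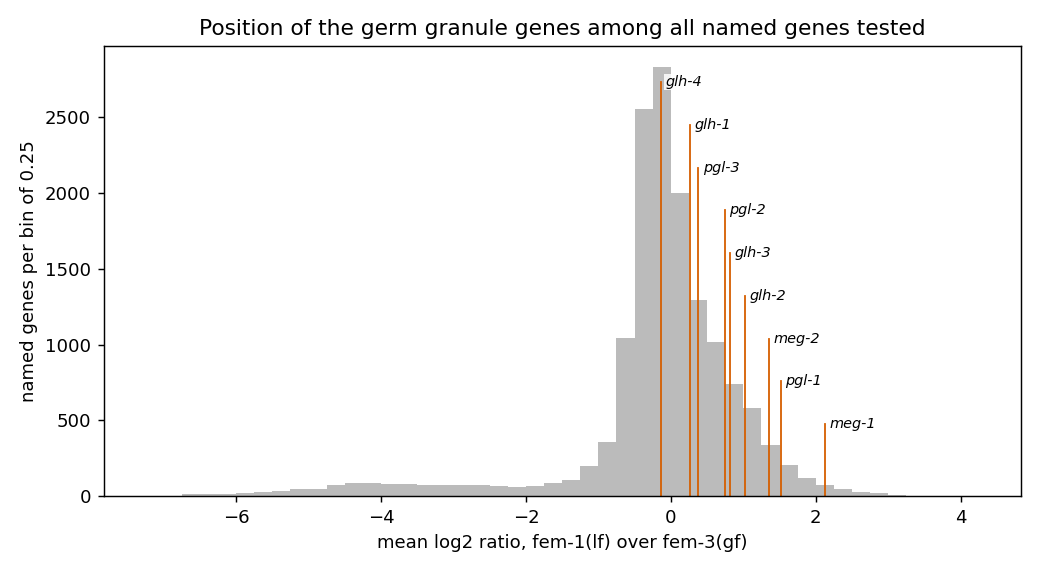
Mean log2 ratio of fem-1(lf) over fem-3(gf) for the 14795 named genes tested (horizontal axis, grey histogram with bins of 0.25, counts on the vertical axis), with a vertical line at the mean of each of the 9 germ granule genes; line heights only separate the labels. The line of glh-4 stands at the peak of the histogram and those of pgl-1 and meg-1 in its thin right flank, while none lies in the long left tail.

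The height of the MEG genes on the array of prep 1 was shared by most oocyte markers and by relatives of the MEG genes, and not by glh-1, glh-2 or the PGL genes. The ratio of prep 1 exceeded the mean of preps 2 and 3 by 1.60 for meg-1 and by 1.60 for meg-2. For the PGL genes the same gap was between 0.16 and 0.19, for glh-2 it was 0.004 and for glh-1 it was -0.15. Larger gaps within the GLH family were those of glh-3 at 0.54 and glh-4 at 0.31. Over the 10 oocyte markers the gap was above 0 for every gene, with a median of 1.00 and a range from 0.15 for chs-1, a chitin synthase gene, to 1.79 for puf-5, which encodes a Pumilio-type RNA regulator. The related genes meg-3 and meg-4, which encode disordered proteins that coat the granules of the embryo, had gaps of 1.31 and 0.83. Over all features the median gap was -0.03, and over the 1687 features with a mean between 1 and 3 it was 0.36. The part of oocyte number or of array scale in the values of meg-1 and meg-2 was not tested.

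**Figure D3:**
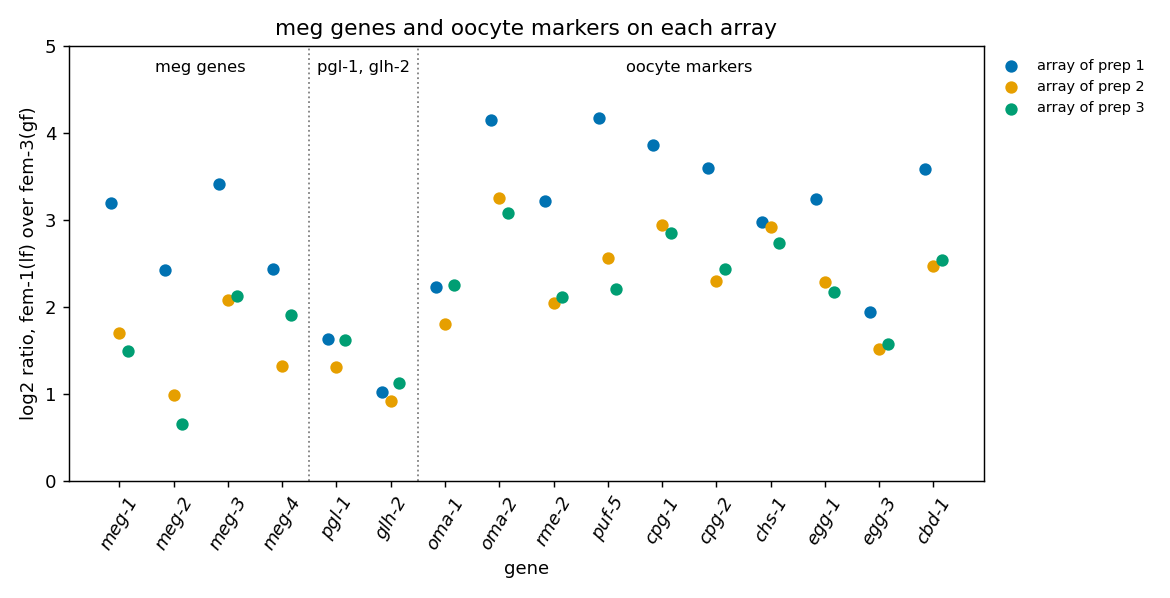
Log2 ratio of fem-1(lf) over fem-3(gf) (vertical axis) on the arrays of preps 1, 2 and 3 (points) for meg-1 to meg-4, for pgl-1 and glh-2, and for the 10 oocyte markers (horizontal axis). The array of prep 1 lies above the others for all 4 meg genes and for 9 of the 10 oocyte markers, the exception being oma-1, whereas the arrays lie close together for pgl-1 and glh-2.

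Several pairs of related genes differed by nearly the same amount on each array. Such a difference between the ratios of 2 genes on an array does not depend on how that array was centred. The ratio of pgl-1 exceeded that of pgl-3 by 1.13, 1.12 and 1.16 on the arrays of preps 1, 2 and 3, which is 1.14 ± 0.02 (SD, n = 3). It exceeded that of pgl-2 by 0.78, 0.57 and 0.97. The PGL genes therefore kept the order pgl-1, pgl-2, pgl-3 on every array.

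In the GLH family, glh-1 lay below glh-2 by 0.86, 0.71 and 0.72, a mean difference of -0.76 ± 0.09 (SD, n = 3). The ratio of glh-4 was the lowest of the family on each array, below glh-2 by between 0.96 and 1.31 and below glh-3 by between 0.72 and 1.10. Less even were the differences of glh-1 from glh-3, at -1.01, -0.21 and -0.43, and from glh-4, at 0.09, 0.51 and 0.59. The pair of glh-2 and glh-3 was the exception among the comparisons within families, since its difference changed sign, at -0.15, 0.50 and 0.28. The ratio of meg-1 exceeded that of meg-2 by 0.77, 0.71 and 0.84, or 0.77 ± 0.07 (SD, n = 3), so the pair kept its distance while the ratios of both were far higher on the array of prep 1.

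Of the 10 pairs within families, 9 kept their sign from array to array. The exact two-sided sign-flip test gave p = 0.25 for each of the 9, the smallest value that 3 arrays allow, and p = 0.5 for glh-2 against glh-3. Adjusted over the 10 pairs these were 0.278 and 0.5, so no pair could pass. Copies of the GLH genes share a helicase domain, the spotted sequences were not analysed here, and a spot may also detect RNA of a relative.

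**Figure D4:**
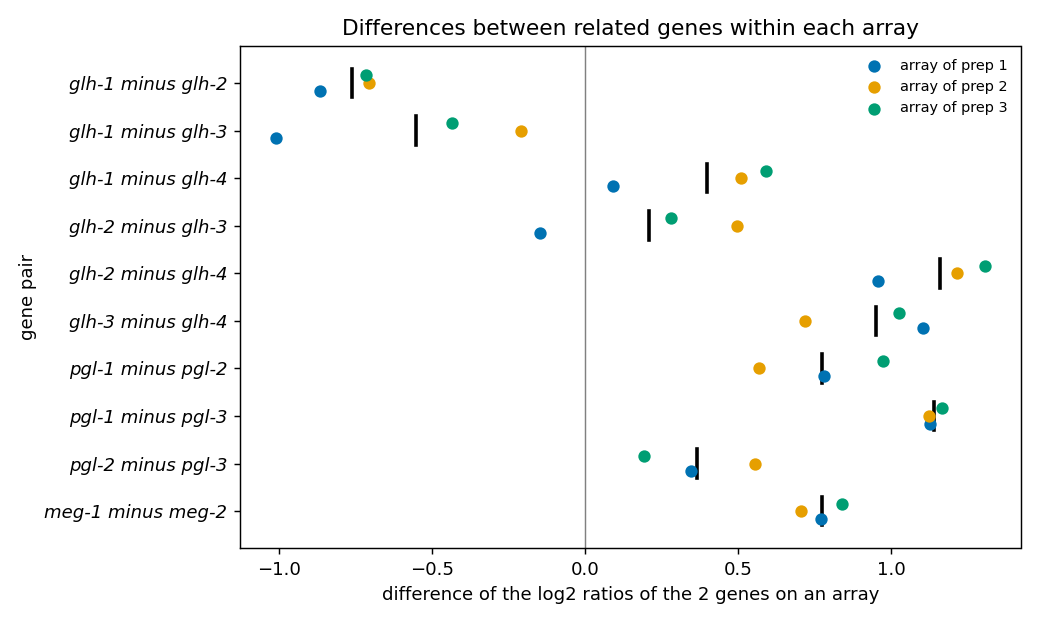
Difference between the log2 ratios of 2 genes of a family (horizontal axis) for the 10 pairs within the GLH, PGL and MEG families (vertical axis), on each array (points) with the mean (black bar). The points lie on 1 side of 0 for each pair but glh-2 minus glh-3, and those of pgl-1 minus pgl-3 nearly coincide at 1.12 to 1.16.

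By mean, the order of the 9 genes was meg-1, pgl-1, meg-2, glh-2, glh-3, pgl-2, pgl-3, glh-1 and glh-4. Of the 8 neighbouring pairs, only pgl-2 over pgl-3 (0.36 ± 0.18, SD, n = 3) and glh-1 over glh-4 (0.40 ± 0.27) kept their sign on all 3 arrays. With 3 arrays the exact sign-flip test cannot separate any of the 8 pairs, and it gave p = 0.25, its smallest value, for these. The other pairs changed sign, among them meg-1 over pgl-1, which was 1.56 on the array of prep 1 and -0.13 on that of prep 3.

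Other components of the granules were spread more widely than the 9 genes, and 1 went the other way. Of 23 tested genes of this list, 12 were called higher in fem-1(lf) (52.2%, against 21% of all features). Only 1 was called higher in fem-3(gf) (4.3%, against 23.7%), and 10 did not pass, with a list median of 0.72. The highest were spn-4, which encodes a maternal RNA-binding protein, at 2.94 ± 0.45 (SD, n = 3), and nos-2, a Nanos-type regulator of the primordial germ cells, at 2.39 ± 0.38. Limma adjusted p-values were 0.000154 and 0.000242. The LOTUS-domain genes mip-1 and mip-2, whose products bind GLH-1, were at 1.19 ± 0.38 and 0.96 ± 0.32 and both passed, and they were picked after their values were seen. The gene called higher in fem-3(gf) was ife-1, which encodes a cap-binding eIF4E isoform that binds PGL-1 and is known to be needed for sperm production. Its ratios were -1.10, -0.81 and -0.80, opposite in sign to those of pgl-1 on each array, with a mean of -0.90 ± 0.17 (SD, n = 3; limma adjusted p = 0.0029).

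Genes of small RNA factors in the same list had values from near 0 to above 1, and those given here were named after their values were seen. The Piwi gene prg-1 was at 0.28 ± 0.11, the Argonaute gene csr-1 at 0.33 ± 0.29 and the helicase gene znfx-1 at -0.17 ± 0.39 (SD, n = 3), none of which passed (limma adjusted p between 0.099 and 0.46). The Argonaute genes wago-1 and wago-4 passed, at 0.72 ± 0.29 and 0.99 ± 0.07, as did the exonuclease-type gene mut-7, at 1.24 ± 0.10. The list also held the small RNA genes rde-12, ego-1, drh-3, ekl-1, simr-1 and mut-16. None of these passed, but all except mut-16 were above 0 on every array. Without mut-16 (0.998), the limma adjusted p lay between 0.051 for simr-1 and 0.065 for ekl-1, just outside the threshold.

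Most genes for sorting the granules in the embryo were higher in fem-1(lf). Of 10 tested, 8 were called in that direction, against 21% of all features, and none was called higher in fem-3(gf), against 23.7%. The median was 1.93, with single genes from -0.35 to 2.85. The highest were pos-1, a zinc finger regulator of maternal mRNA, at 2.85 ± 0.83 (SD, n = 3; limma adjusted p = 0.00109), and meg-3 at 2.54 ± 0.76 (adjusted p = 0.00125). The ratios of meg-3 were 3.41, 2.08 and 2.13, and those of meg-4 were 2.44, 1.32 and 1.91. All 4 meg genes were thus called, with means from 1.35 for meg-2 to 2.54 for meg-3. The 2 that did not pass, par-1, a polarity kinase gene, and pptr-1, which encodes a phosphatase subunit that keeps granules assembled, were at -0.35 ± 0.16 and -0.24 ± 0.15.

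A list of 5 genes of proteins reported to bind GLH proteins had means between -0.45 and 0.57. It leaves out mip-1 and mip-2, whose products bind GLH-1 and which were higher, at 1.19 and 0.96. Of 5 tested, 3 passed as higher in fem-1(lf), against 21% of all features. The 1 that passed as higher in fem-3(gf) is 20% of the list, near the 23.7% of all features. The median was 0.38. The COP9 signalosome subunit gene csn-5 was at 0.57 ± 0.26 (SD, n = 3; limma adjusted p = 0.0242) and the Dicer gene dcr-1 at 0.42 ± 0.07 (adjusted p = 0.0307). The gene kgb-1, which encodes a JNK-type kinase known to act with CSN-5 on the stability of GLH-1, was at -0.42 ± 0.15 (adjusted p = 0.0395). No call in favour of fem-1(lf) was left in this list without prep 1, prep 2 or prep 3, and the call of kgb-1 was lost without prep 2 (-0.41) or prep 3 (-0.35) and in each centring or scaling tried.

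The DEAD-box helicase genes other than the GLH genes lay on the side of fem-1(lf) as well. Of 11 tested, 9 were called higher in fem-1(lf), against 21% of all features, and none was called higher in fem-3(gf), against 23.7%. All 11 had ratios above 0 on every array, against 29.5% of all features, and the median was 0.99. The highest were cgh-1, a germline helicase that protects maternal mRNA, at 1.46 ± 0.30 (SD, n = 3; limma adjusted p = 0.000993), and mut-14, a small RNA factor, at 1.23 ± 0.27 (adjusted p = 0.00151). The latter has a close relative, smut-1, at 1.21 ± 0.18, and their spots may report both. All 11 helicase genes had means above those of glh-1 and glh-4, the lowest being inf-1, which encodes the general translation factor eIF4A, at 0.34 ± 0.13 (adjusted p = 0.066). The lists overlap in cgh-1 and rde-12.

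**Figure D5:**
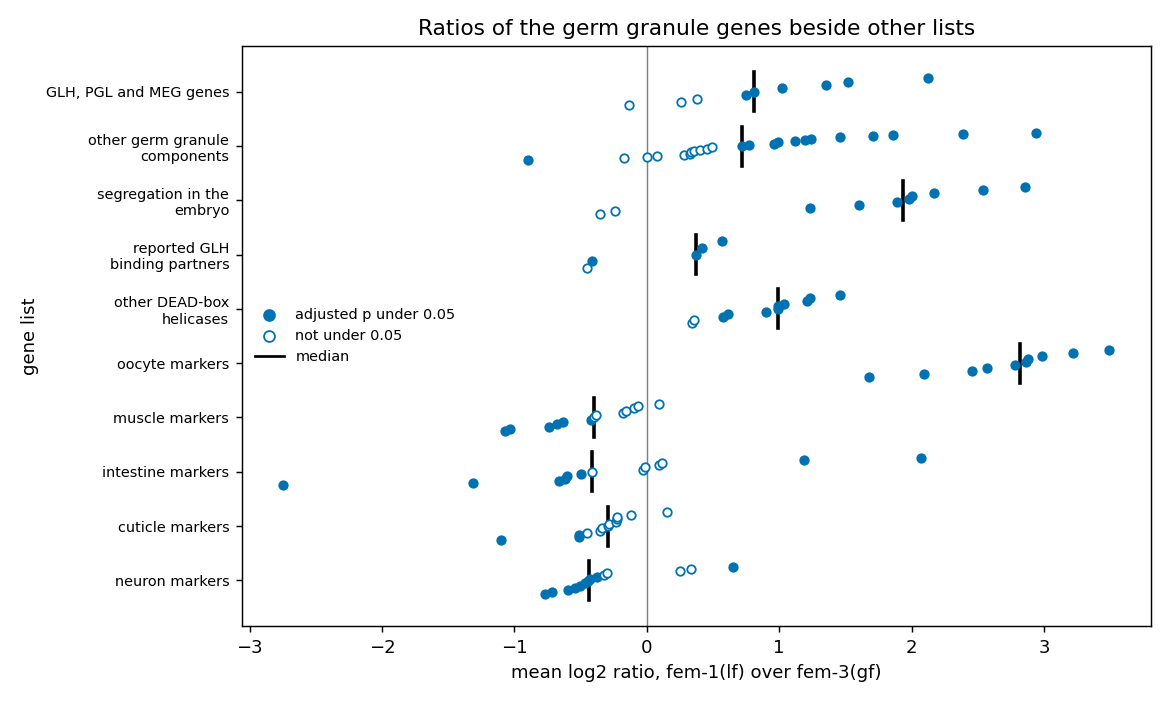
Mean log2 ratio of fem-1(lf) over fem-3(gf) (horizontal axis) for the genes (points) of the GLH, PGL and MEG families and of 9 other lists (vertical axis), filled where the limma adjusted p was under 0.05, with the list median (black bar). The median of the 9 germ granule genes, 0.81, lies between the medians of the somatic markers, which are below 0, and that of the oocyte markers, 2.82. Single genes of these lists overlap.

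The genes with ratios most like those of glh-1 and pgl-1 were found by the distance between their 3 ratios and those of each of the other 14794 named genes. Nearest to pgl-1 were frg-1 (distance 0.07), cam-1, which encodes a ROR-type receptor kinase (0.08), and rskd-1 (0.08). Nearest to glh-1 were C40A11.8 (0.04), acl-5, an acyltransferase-like gene (0.04), and cox-6C, a cytochrome c oxidase subunit gene (0.05). The distance rests on 3 arrays of 1 comparison, and with so many genes some lie close to any set of 3 values.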

How the data were processed

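The authors deposited 1 log2 ratio per spot and array. Its base was read from the file: raising 2 to each value gave a whole number of thousandths (tolerance 0.01) for all but 4 of 64209. The authors' scaling, centring, background correction and dyes are not stated in the sources used here, as no protocol came with the labels. Medians of the arrays were -0.15, -0.07 and -0.07, their SDs 1.35, 1.15 and 1.22, and Pearson correlations across rows, which are not independent replicates, lay between 0.91 and 0.93. The number of arrays limits the precision.

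Gene names came from the platform annotation, updated by RefSeq (WBcel235): of 16450 rows with 1 gene, 16360 were updated by gene ID and 8 by accession, 82 kept an unmatched name, 247 rows had several genes and 4914 none. Several rows of 1 gene were averaged within each array. The 19731 features measured on all 3 arrays were fitted as deposited with limma 3.58.1 in R 4.3.3 (lmFit, intercept against 0, eBayes, two-sided, adjusted over all features). By sign alone 3 arrays cannot give p under 0.25, so the calls draw on a variance estimate pooled over features. Related genes were compared with exact sign-flip tests.

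The members and lists were chosen with earlier results of these data known. All members were named, and in each other list the 2 largest called genes on each side, the 3 genes nearest to glh-1 and to pgl-1, and the check genes (fem-1 at 0.04, fem-3 at 1.76, msp-142 at -4.57 and oma-1 at 2.10, of which neither fem gene is stated to lose its probed sequence). Other names were chosen after their values were seen. Of the listed names, 23 of 29 other granule components, 10 of 11 segregation genes, 5 of 5 partners and 11 of 16 helicases were tested. Protein identity between related genes was not computed here. The alternatives were other centring and scaling, a robust variance model, features with values on 2 or more arrays, each array left out in turn, rows alone or by their median, an adjusted p under 0.01, and limma treat against 1.5-fold. Averaging only rows measured on all 3 arrays was added after seeing the data. Figures were drawn with matplotlib 3.10.9.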

Additional observations from a re-analysis of the deposited data

How the results depend on the processing

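The direction of the 9 genes was kept under every alternative run, except that glh-4 was at 0.25 instead of -0.14 with arrays centred on the somatic markers. The number of the 9 called higher in fem-1(lf) was 7 with median centring (against 23.8% of all features) or scaling to the same spread (24.6%). It was 8 with centring on the somatic markers (36.2%) and 5 to 6 without 1 array (14.9% to 20.4%). It was 4 at an adjusted p under 0.01 (13.7%) and 3 with treat against 1.5-fold (7.3%). None of the 9 was called higher in fem-3(gf) in any alternative. Not called at an adjusted p under 0.01 were glh-3 (0.81) and meg-2 (1.35), and with treat also pgl-2 (0.75). Without 1 array the means ran from 0.63 to 1.01 for glh-3, 0.82 to 1.70 for meg-2 and 1.59 to 2.44 for meg-1, and glh-3 did not pass without prep 3 (0.80). Called only after a shift of 0 were pgl-3 (0.48 with median centring, 0.77 on the somatic markers, 0.47 with scaling) and glh-1 (0.64 on the somatic markers).

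Features called higher in fem-1(lf) and fem-3(gf) numbered 4147 and 4671 as deposited (47.0% of calls on the fem-1(lf) side). They numbered 7152 and 2230 (76.2%) with somatic centring, 2699 and 2544 at an adjusted p under 0.01, and 1431 and 1814 with treat. The fem-1(lf) share of calls was 56.5% with median centring and 56.4% with scaling. Without 1 array the numbers ran from 2933 to 4032 and from 2763 to 4070, the lowest of both without prep 3.

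With somatic centring, 19 of 23 other granule components were called higher in fem-1(lf) (median 1.10), against 36.2% of all features (median 0.28). That count was 18 with median centring (against 23.8% of all features) or scaling to the same spread (24.6%). With treat, 0 of these components were called higher in fem-3(gf), against 1814 of 19731 features. The helicases had a median of 1.37 with somatic centring and of 0.78 to 1.04 without 1 array. With treat, 4 of 11 helicases were called higher in fem-1(lf), against 7.3% of all features. For the GLH partners, the median was 0.47 with median centring or scaling and 0.76 with somatic centring, each with 0 called higher in fem-3(gf). Without 1 array 0 of these partners passed as higher in fem-1(lf), against 14.9% to 20.4% of all features, and 0 to 1 as higher in fem-3(gf). At an adjusted p under 0.01 or with treat, 0 partners were called in either direction. The shares of all features called higher in fem-1(lf) there were 13.7% and 7.3%. The causes of these shifts were not tested. No paired analysis was possible because there is no second group to pair by prep number, and each ratio already compares the genotypes within an array. Signal over background was not analysed here, so no value was weighed by it.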

Other observations

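In the RefSeq gene order, meg-2 and meg-1 are direct neighbours on the X chromosome. On the far side of meg-2 lies ekl-5, at 1.61 ± 0.59 (SD, n = 3), with ratios of 2.29, 1.34 and 1.21 that were also highest on the array of prep 1. On the far side of meg-1 lies elt-3, which encodes a GATA factor of the epidermis, at -1.02 ± 0.40 and called higher in fem-3(gf).

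Both neighbours of glh-4 were called higher in fem-1(lf), at 1.10 ± 0.30 for lin-59, a chromatin gene, and 0.94 ± 0.32 (SD, n = 3) for T12F5.2, whereas glh-4 itself was at -0.14. The neighbours of pgl-3 lay far apart, with the linker histone gene hil-4 at 1.19 ± 0.46 and the glycosyltransferase-type gene bgnt-1.4 at -3.20 ± 0.87. The neighbour of pgl-1 on one side is him-3, a gene of the meiotic chromosome axis, at 0.79 ± 0.04. On the other side is nhr-249, at 0.22 ± 0.33 and not called. Also not called were both neighbours of pgl-2, F22B7.1 at -0.38 ± 0.23 and fli-1 at 0.25 ± 0.25, and che-1 beside glh-2, at 0.02 ± 0.15. The other neighbour of glh-2, C55B7.11, was called higher in fem-1(lf), at 1.80 ± 0.30. Both neighbours of glh-3 were called in that direction too, cpb-3 at 1.63 ± 0.12 and mtk-1 at 0.99 ± 0.19. Of the 16 protein-coding genes that flank the 9 genes and are not among them, 14 were tested, of which 8 passed as higher in fem-1(lf) and 2 as higher in fem-3(gf), against 21% and 23.7% of all features and, for the first direction, 14% to 32.2% of the named genes of these chromosomes. These neighbours were looked at after the values of the 9 genes were known.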
